A study of Mus musculus with 4 samples.

Results

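The insulin-like growth factor (IGF) axis was followed in the skin of mice through 10 genes: the ligand Igf1, the receptor Igf1r, the IGF-binding proteins Igfbp2 to Igfbp7, and the mRNA-binding proteins Igf2bp2 and Igf2bp3. They were chosen by gene symbol, out of 19938 genes with a named transcript cluster on the array. The array reads each gene with a cluster of probes spread over its exons. The cluster's value summarizes these probes, by a method that the labels do not state. Of the 10 genes, 9 had a named cluster, 1 each, and Igf2bp2 had none, so it has no value here. Total RNA from skin was measured on 4 Affymetrix MoGene 1.0 ST arrays, 2 per group, and all values are log2 signals as deposited. All mice were C57BL/6 and heterozygous for the gene of TNF receptor 1 (Tnfrsf1a+/-). The no K5-Cre group held replicate 1, of genotype CflarF/+, and replicate 3, of genotype CflarF/F. Both arrays of the K5-Cre group (replicates 2 and 6) were labelled CflarF/F with K5-Cre. Cflar encodes cFLIP, an inhibitor of death receptor signalling, and the keratin 5 promoter drives Cre in basal keratinocytes, one of many cell types in whole skin. The labels give no age, sex or body site, nor whether RNA was pooled from several animals. The p-values reflect the spread among these 4 samples alone, and that spread could be technical.

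IGF-I and IGF-II are secreted growth factors that act through the receptor tyrosine kinase IGF1R. Binding proteins hold most of the ligand outside the cell, and proteases that cleave them set it free. In skin, IGF-I comes largely from dermal fibroblasts, dermal papilla cells and macrophages, and keratinocytes carry the receptor. The proteins encoded by Igf2bp1 to Igf2bp3 are of another kind: they bind mRNAs in the cytoplasm, the Igf2 mRNA among them, and do not bind IGF.

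In the K5-Cre arrays the receptor gene Igf1r was higher, while the ligand gene Igf1 and the binding protein genes Igfbp3, Igfbp4, Igfbp5 and Igfbp7 were lower, the latter 4 by 2.84-fold to 5.12-fold. The promoter windows of these 6 genes are shown because the genes moved past the threshold in both directions. Each is the stretch of 150 bases before the RefSeq start (GRCm38.p6), 5' to 3', with capitals for the TATA box letters TATAAA and the GC box letters GGGCGG on either strand.
Igf1r (chr7:67952107-67952256, plus strand): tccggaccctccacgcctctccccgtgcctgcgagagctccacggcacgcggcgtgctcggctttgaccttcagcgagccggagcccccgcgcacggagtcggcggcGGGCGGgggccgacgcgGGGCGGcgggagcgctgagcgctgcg
Igf1 (chr10:87860961-87861110, plus strand): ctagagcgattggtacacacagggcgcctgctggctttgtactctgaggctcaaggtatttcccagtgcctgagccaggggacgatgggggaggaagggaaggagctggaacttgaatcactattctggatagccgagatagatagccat
Igfbp3 (chr11:7213924-7214073, minus strand): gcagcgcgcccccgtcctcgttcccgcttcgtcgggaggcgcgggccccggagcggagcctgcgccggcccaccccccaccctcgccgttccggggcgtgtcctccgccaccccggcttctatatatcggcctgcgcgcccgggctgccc
Igfbp4 (chr11:99041094-99041243, plus strand): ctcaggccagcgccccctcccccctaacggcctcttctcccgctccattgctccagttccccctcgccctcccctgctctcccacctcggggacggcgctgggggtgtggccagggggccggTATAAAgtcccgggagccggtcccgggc
Igfbp5 (chr1:72874866-72875015, minus strand): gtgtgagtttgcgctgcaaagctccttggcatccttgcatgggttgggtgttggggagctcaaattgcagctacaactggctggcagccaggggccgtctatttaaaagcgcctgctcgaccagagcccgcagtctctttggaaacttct
Igfbp7 (chr5:77408046-77408195, minus strand): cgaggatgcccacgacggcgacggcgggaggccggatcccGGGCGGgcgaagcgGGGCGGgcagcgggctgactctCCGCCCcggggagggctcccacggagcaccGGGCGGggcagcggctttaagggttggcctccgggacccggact
The Igf1r window held 2 GC boxes, at -43 and -26 from the start, and no TATA box letters. The Igfbp7 window held 4 GC boxes and no TATA box letters. A TATA box stood at -28 in the Igfbp4 window. The exact letters of neither motif were found in the windows of Igf1, Igfbp3 and Igfbp5. Near matches, such as tatatat in the Igfbp3 window, were not counted. Over the full windows of 250 bases before to 50 after the start, the GC content was 76.0% for Igf1r, 73.3% for Igfbp7, 71.7% for Igfbp3, 71.3% for Igfbp4, 56.3% for Igfbp5 and 52.3% for Igf1, against a median of 52.7% over all 32851 windows. Of all windows, 13.6% held the TATA box letters and 35.7% the GC box letters. The E-box letters CANNTG, found in 72.3% of all windows, were in those of Igf1, Igfbp3, Igfbp4 and Igfbp5. The AP-1 letters TGANTCA, in 7.81% of all windows, were only in that of Igf1 among these 6 genes, and the forkhead letters TGTTTAC, in 3.65% of all windows, were in none of the 6. Genes that fell thus had windows with and without the exact letters of each of the first 2 motifs.

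The arrays differed broadly. Cflar, the targeted gene, had 3 clusters with log2 signals of 7.57 to 8.97 without K5-Cre and 8.03 to 9.71 in the K5-Cre arrays. Each was higher in the K5-Cre arrays (by 0.83, 0.46 and 0.83), so these values do not show a loss. Tnfrsf1a, labelled heterozygous in all mice, was at 9.65 and 9.46 without K5-Cre and at 10.71 and 10.75 with it, higher by 1.17. Neither gene checks the labels, and all directions rest on them. A cluster draws on probes along the transcript, and the labels do not name the floxed exon. Across clusters, which are not independent replicates, the control arrays correlated with each other at r = 0.995, the K5-Cre arrays at 0.985, and arrays of different groups at 0.902 to 0.911 (Pearson). Of 11255 genes tested with limma, 64.0% passed the threshold (adjusted p of 0.05). Higher calls made up 25.2% and lower calls 38.8% of the tested genes, and the median difference was -0.14. The skin labels were checked against markers. The level a gene's mean over the 4 arrays had to pass to be tested was 7.61, the median of all clusters. All 8 keratinocyte marker genes lay above it in both group means. All 10 fibroblast marker genes did so without K5-Cre and 9 of them with it, Mfap5 being at 7.55 and 6.90 there. Skeletal muscle markers were also high in the control arrays. Of 9 genes 7 lay above the level there, with Acta1 at 13.43 and 13.01 and Tnnt3 at 13.31 and 13.19, and 3 did so in the K5-Cre arrays. Their summed linear signal was 39914 to 44192 without K5-Cre and 1775 to 2265 with it, and their part in the results was not tested.

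Of the 9 measured genes, 1 rose, 5 fell and 3 did not pass. That is 66.7% called, close to the 64.0% of all tested genes, so the share of calls does not set these genes apart. Their median difference was -0.94, beside -0.14 for all tested genes. Both group means lay above the filter level for all 9. For 7 of the 9 the groups were fully apart, against 86.0% of all tested genes. Falls of at least 2-fold that passed the test were found for 4 of the 9, all binding proteins, against 14.9% of all tested genes. The spread was uneven: the SD between the no K5-Cre arrays was 0.02 to 0.13 for the 9 genes, and that between the K5-Cre arrays 0.02 to 0.71.

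**Figure D1:**
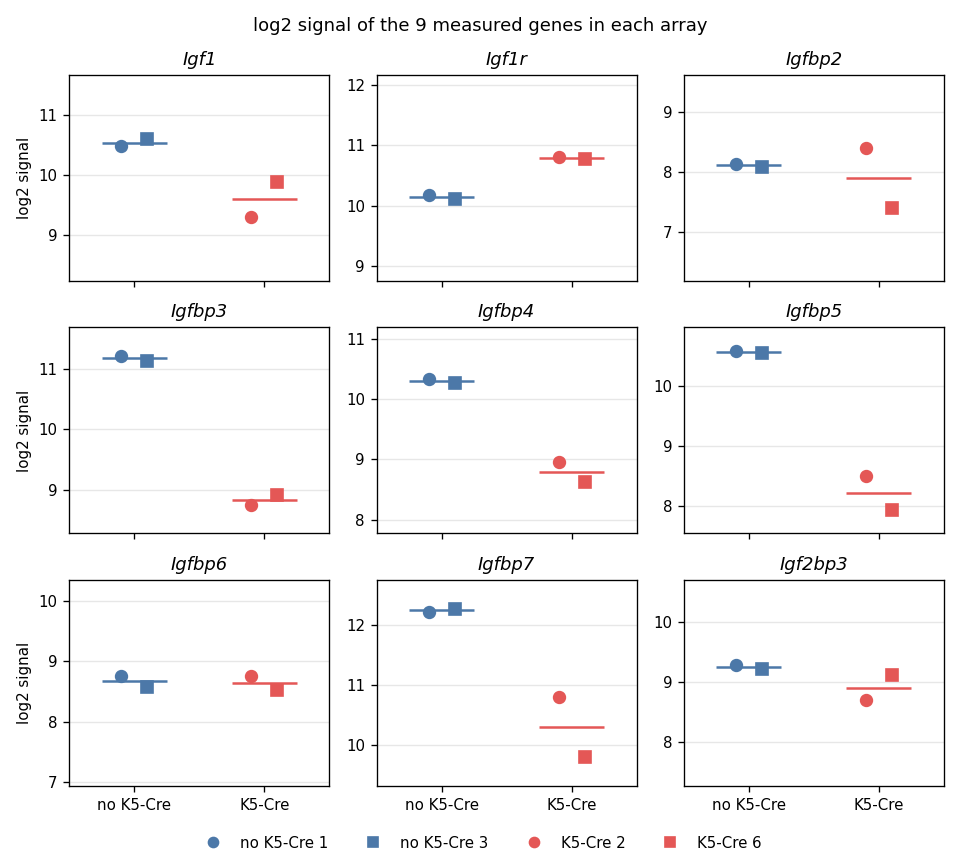
log2 signal (vertical axis, the same height in every panel) of each measured gene in the 4 arrays, with a horizontal line at the group mean (n = 2). The no K5-Cre points lie close together in every panel, whereas the K5-Cre points of Igfbp2 and Igfbp7 are about 1 log2 unit apart (0.99 and 1.01).

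Igf1, the ligand, had log2 signals of 10.48 and 10.60 in no K5-Cre replicates 1 and 3 and of 9.31 and 9.88 in K5-Cre replicates 2 and 6. Both K5-Cre arrays were below both others, with replicate 2 the lowest. Igf1 fell by 0.94 ± 0.21 (SE, n = 2 per group, adjusted p = 0.0132), which is 1.92-fold. Without no K5-Cre replicate 1, which leaves the comparison of CflarF/F genotypes that the series states, the difference was -1.001 ± 0.31 and the test no longer passed (adjusted p = 0.0587). Without replicate 3 it was -0.88 ± 0.31 (adjusted p = 0.0795). In both fits the difference thus stayed about as large while its SE rose. It depended more on the K5-Cre arrays, being -0.66 without K5-Cre replicate 2 and -1.23 without replicate 6. In whole tissue, fewer cells of a type and less RNA per cell cannot be told apart, here and for every gene below. All 8 macrophage markers rose, beside 25.2% of all tested genes. Their summed linear signal was 3794 and 3993 without K5-Cre, 18600 in K5-Cre replicate 2 and 29643 in replicate 6. Of 10 fibroblast markers, 9 fell (90.0%, beside 38.8% of all tested genes) and 1 (Pi16) did not pass. Their median difference was -2.98, with a summed signal of 44494 to 46040 without K5-Cre and 6869 to 7039 with it. The 8 dermal papilla markers had a median difference of -1.70 and a summed signal of 3973 to 3983 without K5-Cre and 1011 to 1555 with it. Of the 7 tested, 6 fell (85.7%), but the K5-Cre means of all 6 lay under the filter level. They were thus tested through the control arrays, where they are high. The same held, in the other direction, for 3 of the 8 macrophage markers. The part of these cell types in the level of Igf1 was not tested.

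Igf1r, the receptor for both IGFs, moved the other way. Its log2 signals were 10.18 and 10.12 without K5-Cre and 10.80 and 10.78 in the K5-Cre arrays. The K5-Cre values lay 0.03 apart and above both others. The rise was 0.64 ± 0.10 (adjusted p = 0.00381), or 1.56-fold, and 83.2% of all tested genes had a lower difference. Leaving out no K5-Cre replicate 1 gave 0.67 (adjusted p = 0.0728) and leaving out replicate 3 gave 0.61 (adjusted p = 0.0907), and neither passed. Of the 8 keratinocyte markers, 5 rose (62.5%, beside 25.2% of all tested genes) and 3 did not pass. Their median difference was 0.58, with a summed signal of 43349 to 44977 without K5-Cre and 58750 to 67460 with it. Their part in the rise of Igf1r was not tested. By Euclidean distance over the 4 centred values, the tested genes nearest to Igf1r were S100a11, Arhgef1 and Rffl (distances 0.01, 0.02 and 0.02), and 2509 of 11246 genes lay within 0.5.

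Igfbp3, which encodes the main carrier of IGF in blood and is also made in skin, fell about as far as Igfbp5. Log2 signals of 11.22 and 11.14 without K5-Cre stood against 8.74 and 8.91 with it. The gap between the groups, 2.23, was far wider than the 0.17 between the K5-Cre arrays. The difference was -2.36 ± 0.11 (adjusted p = 0.000147), a fall of 5.12-fold, and 2.85% of tested genes fell further. The cluster lies on chromosome 11 from 7106089 to 7113926 (mm9, minus strand) and has 26 probes. The authors' deposited table, a separate summary of the same arrays, gives log2 folds against no K5-Cre replicate 1 of -2.38 and -2.16 for K5-Cre replicates 2 and 6, and of -0.07 for no K5-Cre replicate 3. Its nearest genes by the same distance were Adgra3, Npr2 and Mamstr (0.04, 0.04 and 0.05).

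Igfbp5 encodes a binding protein that also attaches to the extracellular matrix. It had log2 signals of 10.57 and 10.54 without K5-Cre, and of 8.50 and 7.94 in K5-Cre replicates 2 and 6. Both K5-Cre values were at least 2.04 below the others, with replicate 6 the lower. Igfbp5 fell by 2.33 ± 0.20 (adjusted p = 0.000675), or 5.04-fold. In the authors' deposited table its cluster of 28 probes (chromosome 1, 72904610 to 72921439, mm9, minus strand) had log2 folds of -1.96 and -2.57 in K5-Cre replicates 2 and 6, and -0.04 in no K5-Cre replicate 3. The order of Igfbp3, Igfbp5 and Igfbp7 was not stable. Without K5-Cre replicate 2, Igfbp5 differed by -2.61 and Igfbp7 by -2.44, both further than Igfbp3 with -2.27.

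Igfbp7 encodes a low-affinity IGF binder of the vascular matrix. Its log2 signals were 12.22 and 12.27 without K5-Cre, 10.81 in K5-Cre replicate 2 and 9.80 in replicate 6. The groups were 1.41 apart, and the K5-Cre arrays differed from each other by 1.01, a gap that 1.13% of tested genes exceeded. Igfbp7 fell by 1.94 ± 0.33 (adjusted p = 0.00563), or 3.84-fold. The 25-probe cluster (chromosome 5, 77778270 to 77837070, mm9, minus strand) had log2 folds of -1.36, -2.25 and 0.06 for K5-Cre replicates 2 and 6 and no K5-Cre replicate 3 in the authors' deposited table. Endothelial markers fell for 8 of 10 genes (80.0%, beside 38.8% of all tested genes), Pecam1 and Vwf being the ones that did not pass. Their median difference was -1.96, with a summed signal of 9989 to 10228 without K5-Cre and 2855 to 3443 with it. Of the 8 falls, 5 were of genes whose K5-Cre mean lay under the filter level, so that they were tested through the control arrays. Pericyte and smooth muscle markers fell for 3 of 8 (37.5%, beside 38.8% lower calls among all tested genes), a count of 2 to 7 with 1 array left out, and their summed signal was 11396 to 12263 without K5-Cre, 7805 in K5-Cre replicate 2 and 2471 in replicate 6. Of the 5 pericyte and smooth muscle markers that did not pass, Tagln and Cnn1 had higher K5-Cre means, by 0.57 and 0.77. Acta2, Myh11 and Cspg4 had lower ones. In K5-Cre replicate 2, Tagln and Cnn1 were at 9.79 and 10.17, above both no K5-Cre arrays. In replicate 6 they were below both. The summed signal weighs Acta2 and Des most, the genes of this list with the highest signals without K5-Cre. The part of these cell types in the level of Igfbp7 was not tested.

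Igfbp4, whose product blocks IGF action until it is cleaved, had log2 signals of 10.33 and 10.27 without K5-Cre and 8.96 and 8.63 with it. The groups were 1.31 apart. The difference was -1.51 ± 0.14 (adjusted p = 0.000923), or 2.84-fold. The authors' deposited table, limited to clusters that differed 4-fold or more from 1 control array, held 3 of the 10 genes, Igfbp3, Igfbp5 and Igfbp7, and not Igfbp4.

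Igfbp2, whose product also binds integrins, split the K5-Cre pair. Log2 signals were 8.14 and 8.08 without K5-Cre, 8.39 in K5-Cre replicate 2 and 7.41 in replicate 6. One K5-Cre array was thus above both others and one below, a gap of 0.99 that 1.24% of tested genes exceeded. The difference was -0.21 ± 0.32 (95% interval -1.04 to 0.62, adjusted p = 0.595). It was 0.28 without K5-Cre replicate 6 and -0.70 without replicate 2, so its sign rested on the K5-Cre array kept. Neither of these fits measures the spread between the K5-Cre arrays. Igfbp2 and Igfbp5 are direct neighbours among protein-coding genes on chromosome 1, so neighbouring family members had different patterns on the same arrays.

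Igfbp6, whose product prefers IGF-II, had log2 signals of 8.76 and 8.58 without K5-Cre and 8.76 and 8.53 with it. The groups overlapped, and the difference was -0.03 ± 0.13 (95% interval -0.37 to 0.31, adjusted p = 0.868). Its sign turned under quantile normalization, with arrays shifted to the same median, and without no K5-Cre replicate 1 or K5-Cre replicate 6. Either bound of that interval is smaller in size than the falls of Igfbp3, Igfbp4, Igfbp5 and Igfbp7.

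Igf2bp3, an mRNA-binding protein gene active mainly before birth, had log2 signals of 9.28 and 9.22 without K5-Cre and 8.70 and 9.12 with it. Both K5-Cre values were lower, but replicate 6 by as little as 0.10. The difference of -0.34 ± 0.17 did not pass (95% interval -0.77 to 0.08, adjusted p = 0.126). Without K5-Cre replicate 6 it was -0.55 and passed (adjusted p = 6.73e-06), where the lone K5-Cre array is assumed to vary like the other group.

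**Figure D2:**
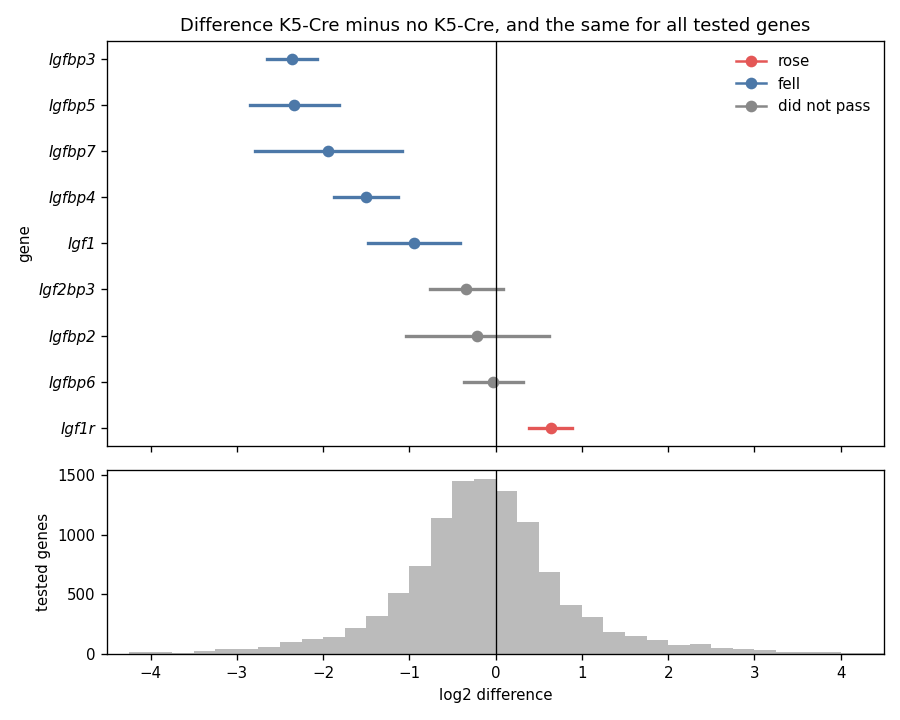
Upper panel: log2 difference K5-Cre minus no K5-Cre of the 9 genes, with 95% intervals from limma (n = 2 per group), coloured by whether the gene rose, fell or did not pass. Lower panel: the same difference for the 11255 tested genes (bins of 0.25, shown from -4.5 to 4.5). Igfbp3, Igfbp5, Igfbp7 and Igfbp4 lie in the left tail of the lower panel, from -2.36 to -1.51.

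Other genes of the pathway were counted by role. Of 62 genes in 7 lists, 56 had a named cluster and 45 were tested. Of these, 13 rose and 19 fell, and the median difference was -0.22. Without no K5-Cre replicate 1, 8 rose and 12 fell, and without replicate 3, 8 rose and 13 fell. The 32 called genes, 71.1% of those tested, are to be read against the 64.0% of all tested genes.

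All 3 tested genes among the other ligands and receptors fell, beside 38.8% of all tested genes. Igf2, the fetal growth factor gene, had log2 signals of 13.23 and 13.21 without K5-Cre and 11.04 and 11.40 with it, a fall of 4.01-fold (SE 0.14 on the log2 scale, adjusted p = 0.000339). Igf2r, whose product clears IGF-II from the cell surface, fell by 1.06 ± 0.10 (adjusted p = 0.000869). Insr, the insulin receptor gene, fell by 1.39 ± 0.16 (adjusted p = 0.00163), and its second cluster had a difference of -0.54. Among the receptor genes Igf1r, Igf2r and Insr, Igf1r was thus the one that rose. Insrr and Ins2 were under the filter, at 6.42 to 6.93 and 6.62 to 6.96 in all arrays, and Ins1 had no named cluster. The remaining binding protein genes Igfbp1 and Igfbpl1, and Igfals, which encodes the third part of the circulating complex, were also under the filter, at 6.21 to 7.39 in all arrays.

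CCN proteins share a domain with the IGF-binding proteins, and their genes differed in direction. Among the 5 tested genes 3 rose and 1 fell, and Ccn5 missed the threshold (0.31 ± 0.11). That is 80.0% called, beside 64.0% of all tested genes. Ccn3 went from 9.33 and 9.43 to 11.78 and 12.53, a rise of 2.78 ± 0.26 (adjusted p = 0.00081). Ccn1, an early response gene of wounds, rose by 1.97 ± 0.10 (adjusted p = 0.00018). Ccn2 rose by 0.99 ± 0.23 (adjusted p = 0.0154), and missed the threshold when either control array was left out (adjusted p up to 0.0821). Ccn4 fell by 0.93 ± 0.20, and missed the threshold when no K5-Cre replicate 1 was left out (adjusted p = 0.0587).

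Genes of binding protein proteolysis had no common direction. Among the 7 tested genes 2 rose and 3 fell, and 2 missed the threshold. That is 71.4% called, near the 64.0% of all tested genes. Pappa2, which encodes a protease that cleaves the products of Igfbp3 and Igfbp5, fell by 1.96 ± 0.14 (adjusted p = 0.000367), from 8.99 and 8.86 to 6.80 and 7.12. Its K5-Cre level lay under the filter, which it passed through the control arrays, and its other 2 clusters had differences of -2.37 and -3.05. Its relative Pappa, which acts on the Igfbp4 product, was under the filter, with 8.04 and 7.89 without K5-Cre and 7.01 and 7.04 with it. In the limma fit without the filter it was lower by 0.94 ± 0.10 (adjusted p = 0.00103). Mmp3, the gene of the matrix protease stromelysin-1, was also under the filter. It had the widest difference of this list when each gene is read by its highest-mean cluster. It was at 6.05 and 6.00 without K5-Cre and at 9.19 and 7.84 with it, so only the K5-Cre arrays lay above the filter level. Mmp3 was higher by 2.49 ± 0.41 in the fit without the filter (adjusted p = 0.00464). In the authors' deposited table Mmp3 had log2 folds of 2.81 and 1.68 in K5-Cre replicates 2 and 6. Mmp7 was under the filter too. The protease genes Htra3 and Adam12 fell by 1.59 ± 0.31 and 1.54 ± 0.12 (adjusted p = 0.00895 and 0.000493). Ctsd, the gene of the lysosomal protease cathepsin D, rose by 1.28 ± 0.09 (adjusted p = 0.000346). Stc2, which encodes an inhibitor of the pappalysins, rose by 0.60 ± 0.12 (adjusted p = 0.00961), and missed the threshold with either control array left out (adjusted p up to 0.0985).

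In the growth hormone arm, which drives Igf1 in liver, 2 of 6 genes rose, 1 fell and 3 did not pass. Among all tested genes 25.2% rose and 38.8% fell. The share called in this arm was below the 64.0% of all tested genes, so these counts do not set the arm apart. The receptor gene Ghr went from 10.22 and 10.32 to 8.15 and 7.77, and fell by 2.31 ± 0.16 (adjusted p = 0.000345). The kinase gene Jak2 rose by 1.92 ± 0.18 (adjusted p = 0.000843), and the feedback gene Cish by 1.16 ± 0.14 (adjusted p = 0.00187). Both also serve cytokine receptors. Socs2, another feedback gene of this arm, differed by 0.01 ± 0.11 in its tested cluster (adjusted p = 0.95). Its second cluster, also above the filter level, was at 8.15 and 8.13 without K5-Cre and 8.58 and 8.49 with it, higher by 0.40, so the clusters of Socs2 disagree.

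Downstream of the receptor, 21 genes were tested, of which 4 rose and 10 fell (median -0.32). That is 66.7% called, close to the 64.0% of all tested genes. Without no K5-Cre replicate 1, 1 rose and 4 fell, and the counts were the same without replicate 3. Pik3cb was the rise, and Grb10, Irs1, Pik3r1 and Foxo1 the falls, that passed in either case. Irs2, Grb2, Foxo3, Akt1, Akt2, Pik3ca, Pik3r2, Ptpn11 and Tsc2 lost their calls in both. Grb10, the gene of an adaptor that restrains both IGF and insulin receptors, had log2 signals of 11.69 and 11.60 without K5-Cre and 8.18 and 8.32 with it. It fell by 3.39 ± 0.11 (adjusted p = 7.03e-05). The docking protein gene Irs1 fell by 3.11 ± 0.19 (adjusted p = 0.000264), from 10.77 and 10.70 to 7.89 and 7.37. Its second cluster, under the filter level at 5.65 to 6.41, had a difference of -0.64. Irs2, in contrast, rose by 0.73 ± 0.12 (adjusted p = 0.00432). The adjusted p of Irs2 was up to 0.055 with a control array left out. Pik3r1, encoding the regulatory subunit of PI3-kinase, fell by 1.86 ± 0.20 (adjusted p = 0.00125), and the catalytic subunit gene Pik3cb rose by 1.22 ± 0.17 (adjusted p = 0.00303). The kinase gene Mtor differed by -0.15 ± 0.10 and Pdpk1 by -0.12 ± 0.10, and neither passed (adjusted p = 0.231 and 0.331).

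Among fetal growth genes linked to the Igf2bp family, 2 of 3 tested rose and 1 fell, beside 25.2% and 38.8% of all tested genes. Igf2bp1, the relative of Igf2bp3, went from 8.23 and 8.22 to 9.56 and 9.09, a rise of 1.10 ± 0.18 (adjusted p = 0.00457). Its second cluster was higher by 0.38 and lay at 6.45 to 7.09. Hmga2, a chromatin protein gene whose mRNA these proteins bind, rose by 1.12 ± 0.14 (adjusted p = 0.0021). Plagl1, an imprinted regulator of the growth gene network to which Igf2 belongs, fell by 2.98 ± 0.11 (adjusted p = 8.41e-05). Igf2bp1 and Igf2bp3 thus had differences of opposite sign, of which that of Igf2bp1 passed. The difference between them was not tested.

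**Figure D3:**
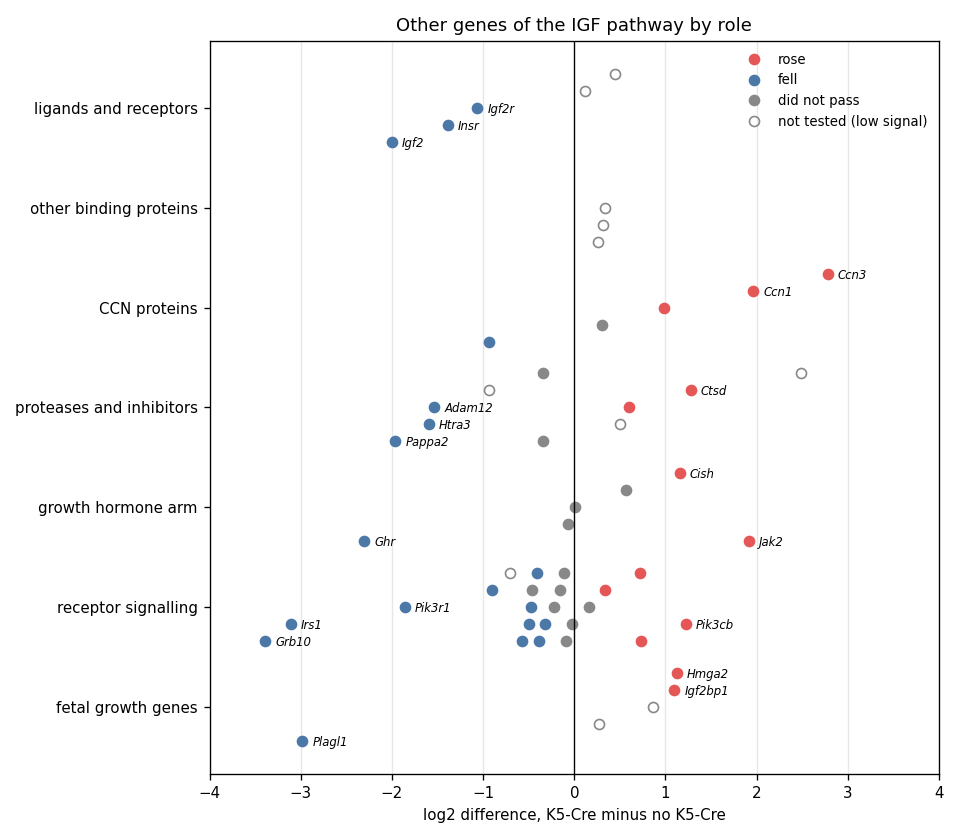
log2 difference K5-Cre minus no K5-Cre (horizontal axis) of 56 other genes of the pathway by role, 1 point per gene, with the height inside a row used to separate points. Open points are genes under the filter level, and names mark tested genes past the threshold with a difference of at least 1 in either direction, from Grb10 at -3.39 to Ccn3 at 2.78.

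Within the K5-Cre pair, 6 of the 9 genes were lower in replicate 6 than in replicate 2. The share of all tested genes lower in replicate 6 was not counted, so this count does not set the 9 genes apart. Igfbp7, Igfbp2 and Igfbp5 were lower there by 1.01, 0.99 and 0.56. Igf1 and Igf2bp3 were higher in replicate 6, by 0.57 and 0.42. On the same arrays the mean log2 signal of the pericyte and smooth muscle list was 1.54 lower in replicate 6 and that of the macrophage list 0.70 higher. Their part in the spread was not tested. The fibroblast and endothelial lists differed by -0.08 and -0.03 between those 2 arrays. For the dermal papilla, keratinocyte and adipocyte lists, replicate 6 minus replicate 2 was -0.39, -0.25 and -0.18. For the skeletal muscle and neutrophil lists it was 0.24 and 0.19.

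**Figure D4:**
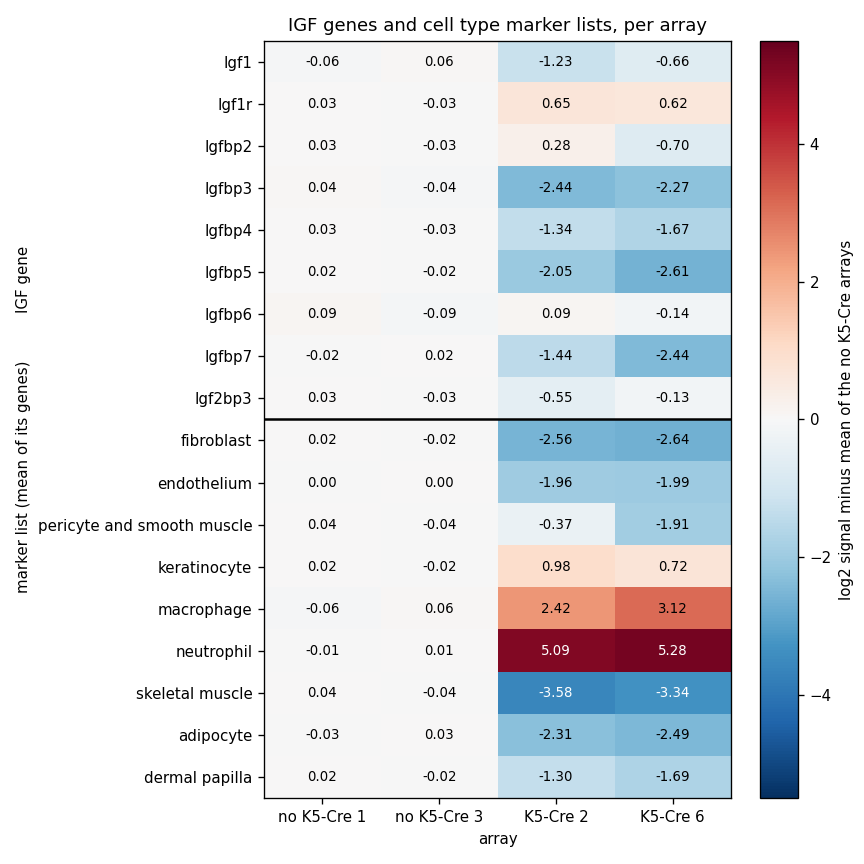
Deviation of each array (columns) from the mean of both control arrays (no K5-Cre), in log2 units, for the 9 genes (upper rows) and for the mean of each cell type marker list (lower rows). Igfbp3, Igfbp4, Igfbp5 and Igfbp7 are below 0 in both K5-Cre arrays, as are the fibroblast, endothelium, pericyte and smooth muscle, skeletal muscle, adipocyte and dermal papilla lists, while Igf1r and the keratinocyte, macrophage and neutrophil lists are above 0.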

How the data were processed

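The authors deposited a table of log2 values for 35557 transcript clusters on 4 arrays; their probe summary and normalization are not stated in the labels or headers, and no further scaling was applied. Another deposited table, per the file headers, holds 1396 clusters past a fold of 4 (20th percentile filter, mm9), with a linear signal per array, the log2 ratio and a signed fold score against no K5-Cre replicate 1. There were 0 unmapped columns. Clusters with exactly 1 symbol in the platform annotation (21789) were named, 21698 of them updated through RefSeq. A cluster entered if its mean lay above the median of all clusters (7.61), and the one with the highest mean stood for its gene, which left 11255 genes.

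The 2 groups were fitted in limma 3.58.1 (R 4.3.3) with eBayes and a mean-variance trend, which left 5.01 moderated degrees of freedom. Two-sided p-values were adjusted by Benjamini-Hochberg over the 11255 genes, and 0.05 was the threshold. An exact permutation test of 2 against 2 cannot go below 0.333, so each p rests on the variance model. The number of arrays limits the precision (median SE 0.12). Counts of marker genes with an array left out, and the remarks on Mmp3, on Pappa and on second clusters, were added after seeing the data. The members, the 7 pathway lists and the marker lists were chosen with earlier results of these data known. Named were all members, the ligand and receptor genes, up to 4 genes per list with a passing difference of at least 1, and the 3 nearest genes of the members with the largest rise and fall; other pathway genes named were chosen after their values were seen. Promoter windows are RefSeq's (GRCm38.p6, all 10 genes matched).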

Additional observations from a re-analysis of the deposited data

How the results depend on the processing

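Of the 9 genes, Igfbp3, Igfbp4, Igfbp5 and Igfbp7 kept their fall and their call under all 10 alternatives (no filter, a filter at 6.35, quantile normalization, arrays shifted to the same median, no variance trend, the mean over clusters, and each array left out). Both filter changes, the missing variance trend and the mean over clusters could not change the difference of a gene with 1 cluster above the filter. Igf1 and Igf1r lost their calls without either no K5-Cre array. The difference of Igf1r was then 0.67 or 0.61 beside 0.64, while its SE rose from 0.10 to 0.23. In these fits a gene's own spread comes from the K5-Cre pair alone. Over all tested genes, the SD of the difference between the arrays of a pair was 0.36 for K5-Cre and 0.12 for no K5-Cre. With 1 array left out, the number of the 9 genes that rose ranged from 0 to 2 and that of those that fell from 4 to 6. Among the 45 tested pathway genes, 8 to 16 rose and 12 to 23 fell with 1 array left out, the lowest counts being those without a no K5-Cre array. Igfbp2 reversed to 0.28 without K5-Cre replicate 6 and was -0.70 without replicate 2, in fits that do not measure the spread between the K5-Cre arrays. Igfbp6 reversed to 0.14 under quantile normalization, 0.043 with arrays shifted to the same median, 0.062 without no K5-Cre replicate 1 and 0.090 without K5-Cre replicate 6. The median difference of all tested genes was -0.14 as deposited, -0.02 under quantile normalization and -0.07 with shifted medians, and relative to it Igf1r differed by 0.78 and Igf1 by -0.80 as deposited. With 1 array left out, a lone array is assumed to vary like the other group. No paired analysis was possible because the groups share no replicate number.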
